A study of Rattus norvegicus with 6 samples.

Results

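In cultured rat sertoli cells, 56 piRNA-annotated small RNAs had a mean level after 4-nonylphenol (4-NP) of no more than 0.5 of the mean in untreated cells. They were chosen from 806 piRNA-annotated rows in a table of 2363 small RNAs by 2 criteria, a mean of 10 or more reads over the 6 samples and that ratio of group means. Of the 806 rows, 424 reached the read minimum, so the 56 made up 13.2% of those that could be chosen. The same ratio held for 10.9% of all 707 small RNAs other than mature miRNAs with that many reads, the 424 included, and for 7.42% of those that were not piRNA-annotated. Among the latter, it held for 15 of 91 miRNA precursors. The ratio that chose them is the difference between treated and control samples itself, and it is therefore given below as a description without a test. The small RNA libraries came from primary sertoli cells of Sprague-Dawley rats aged 5 to 10 days, with 3 control samples without 4-NP and 3 samples treated with 0.5 mM 4-NP for 24 h. 4-NP is an alkylphenol used in the polymer industry that acts as a xenoestrogen. The labels do not say whether the samples came from separate animals or cultures and name no batch, so the spread between samples may be technical. Levels are reads per 1000000 mature miRNA reads (CPM), and each sample had 20023200 to 23426742 mature miRNA reads.

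piRNAs are small RNAs bound by PIWI proteins, a branch of the Argonaute family, and are made without Dicer from long single-stranded precursors. In the testis they are known from germ cells, where they guide the silencing of transposons and, in later stages, the control of other transcripts. Sertoli cells are the somatic cells that nourish the germ cells, and a primary culture of them from young testes can hold germ cells. An entry under a piRNA name is an annotation by sequence match, since sets of named piRNAs also hold fragments of other RNAs. Short RNA of 18 to 30 nt was cut from the gel for these libraries, which covers the lengths of miRNAs and most piRNAs.

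The 56 members comprised 36 named rat piRNAs, called known rows here, and 20 piRNAs predicted by the authors. The table held 280 known and 526 predicted rows, of which 97 and 327 reached the read minimum. Members were therefore 37.1% of the known rows that could be chosen and 6.12% of the predicted ones. The predicted rows hold either 0 or at least 10 reads in a sample, and none of their values lies between 1 and 9, so a predicted piRNA listed at 0 may have had up to 9 reads. Known rows hold values from 1 read upward. Rows are identified by name, and the sequences and genome positions of these piRNAs were not analysed here.

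**Figure D1:**
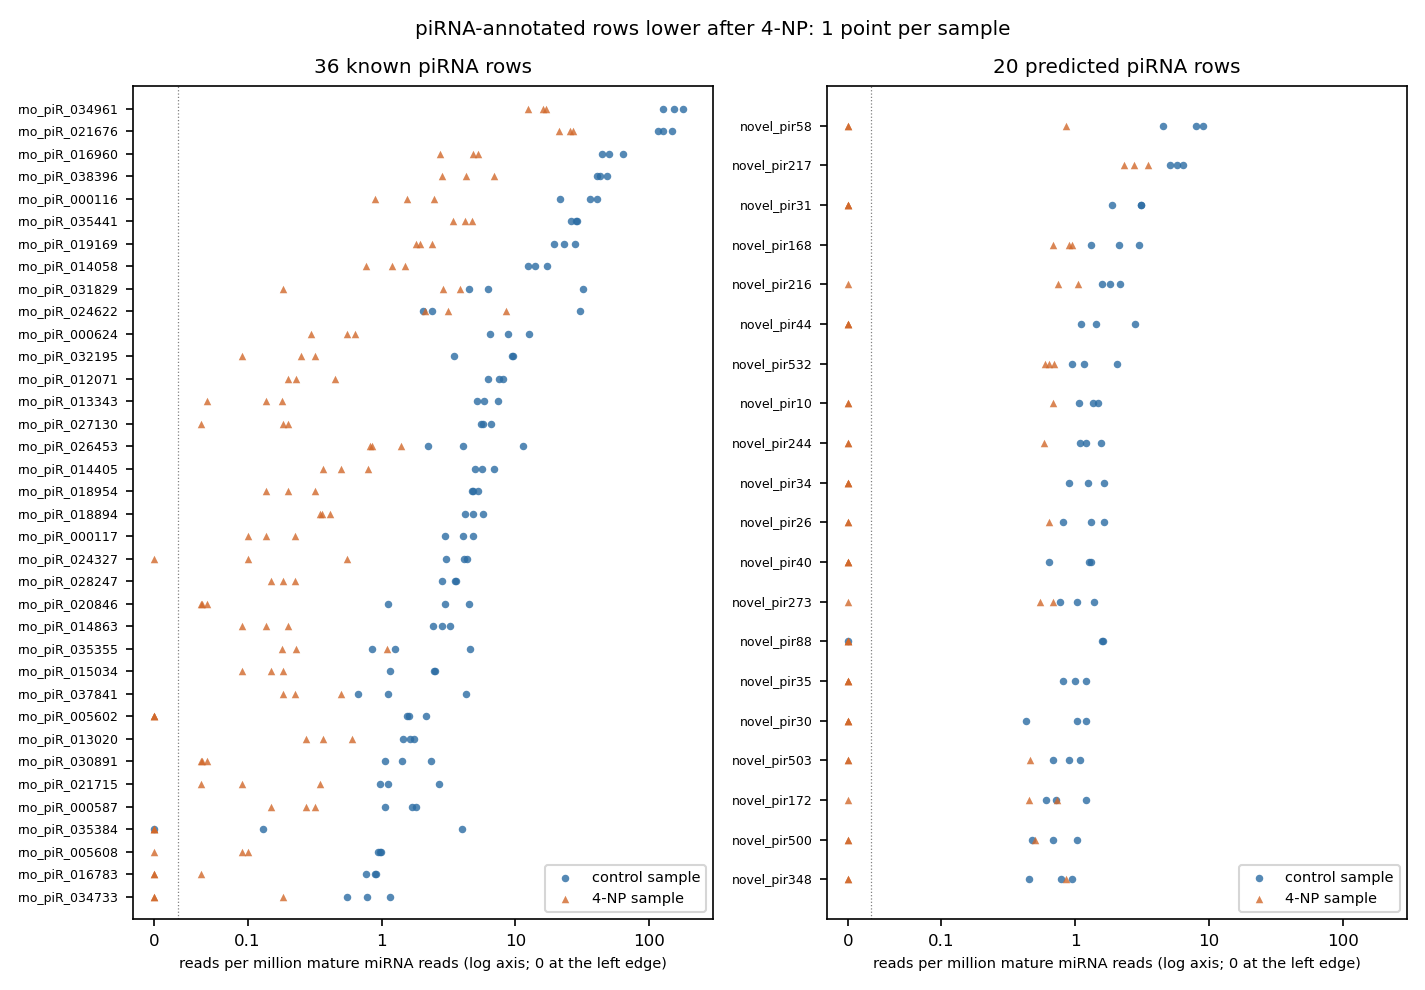
Level of each of the 56 members in each sample, in CPM on a log axis, with samples at 0 placed at the left edge. Circles are the 3 control samples and triangles the 3 4-NP samples, and 33 of the 36 known and 16 of the 20 predicted members had every 4-NP sample below every control, which held for 11.3% of the 707 small RNAs other than mature miRNAs with a mean count of 10 or more.

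The most abundant member was rno_piR_034961. Control samples 1, 2 and 3 held 2952, 3526 and 3999 of its reads, and 4-NP samples 1, 2 and 3 held 275, 337 and 350. All read counts below follow this order of samples. Its level was 153 ± 26.7 CPM without and 15.1 ± 2.34 CPM with 4-NP (SD, n = 3 per group), so that the 4-NP mean was 9.88% of the control mean. All 3 treated samples lay close together and far below the lowest control.

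rno_piR_021676 was the next most abundant, with 2712, 3394 and 2839 control reads and at most 587 reads in a treated sample. Its level was 130 ± 15.8 CPM without and 24.5 ± 3.09 CPM with 4-NP (SD, n = 3 per group), or 18.9% of the control mean. It kept the highest level of all members in the treated samples. Together these 2 piRNAs held 44.7% of the summed level of the 56 members in the controls, and the 10 most abundant held 79.6%.

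Of the other 8 among the 10 most abundant members, 7 likewise had every treated sample below every control. rno_piR_016960 had 1033, 1153 and 1412 control reads against 116, 96 and 60 treated, and rno_piR_038396 had 960, 1107 and 958 against 94, 57 and 151. rno_piR_035441 had 610, 665 and 636 reads against 75, 95 and 92, or 27.8 ± 1.52 CPM without and 4.11 ± 0.682 CPM with 4-NP (SD, n = 3 per group). No sample of either group stood apart for this piRNA.

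rno_piR_019169 had 455, 531 and 620 control reads against 40, 39 and 52. rno_piR_014058 had 290, 322 and 383 against 17, 24 and 33. Their 4-NP means were 8.73% and 7.99% of the control means, which is near the middle of all 56 members. rno_piR_000116 had the lowest share of the 10, with 504, 937 and 805 control reads against 55, 18 and 34, or 5.03% of the control mean in CPM.

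In 2 of the 10 most abundant members, 1 control sample held most of the control reads. rno_piR_031829 had 106, 734 and 139 control reads against 86, 58 and 4, with control sample 2 far above the rest and the groups still without overlap. Its ratio of 4-NP to control means was 0.164 with all samples and 0.432 without control replicate 2. rno_piR_024622 had 48, 55 and 678 control reads against 69, 42 and 186, so the groups overlapped and control sample 3 alone stood high. Its ratio was 0.393 with all samples and 2.06 without control replicate 3, so its place among the members came from that sample.

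Several less abundant members held only a few reads in the treated samples. The known member rno_piR_013343 had 120, 171 and 129 control reads against 4, 1 and 3. rno_piR_027130 had 135, 151 and 124 against 1, 4 and 4, and rno_piR_020846 had 26, 69 and 100 against 1, 1 and 1. Of the 108 values of the known members in 4-NP samples, 12 were 0 and 25 were 1 to 3 reads, whereas 1 of their control values was 0. A total of 3 reads, taken as the limit that a count of 0 allows, corresponded to 0.128 to 0.150 CPM depending on the sample, and such limits cover counting error only. The treated levels of such members were therefore at or near the limit that the depth of these libraries sets. Other rare members lay above it, such as rno_piR_013020 with 6, 12 and 8 treated reads.

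Among the 5 members with the lowest ratios, every 4-NP sample was at 0. rno_piR_005602 had 36, 50 and 36 control reads and 0 in each treated sample, so with 3 reads per treated library as the limit it was at least 12.6-fold lower. rno_piR_035384 was likewise at 0 in the treated samples, but its 94, 3 and 0 control reads came almost wholly from control sample 1, and it did not pass the filter on low counts for the test. Of the predicted piRNAs, novel_pir31 had 44, 72 and 69 control reads, novel_pir44 had 26, 65 and 32, and novel_pir34 had 29, 38 and 20. Each was listed at 0 in all 3 treated samples. No fold is given for these 3, because values under 10 reads are not listed in predicted rows. In all, 2 known and 7 predicted members were at 0 in every treated sample.

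**Figure D2:**
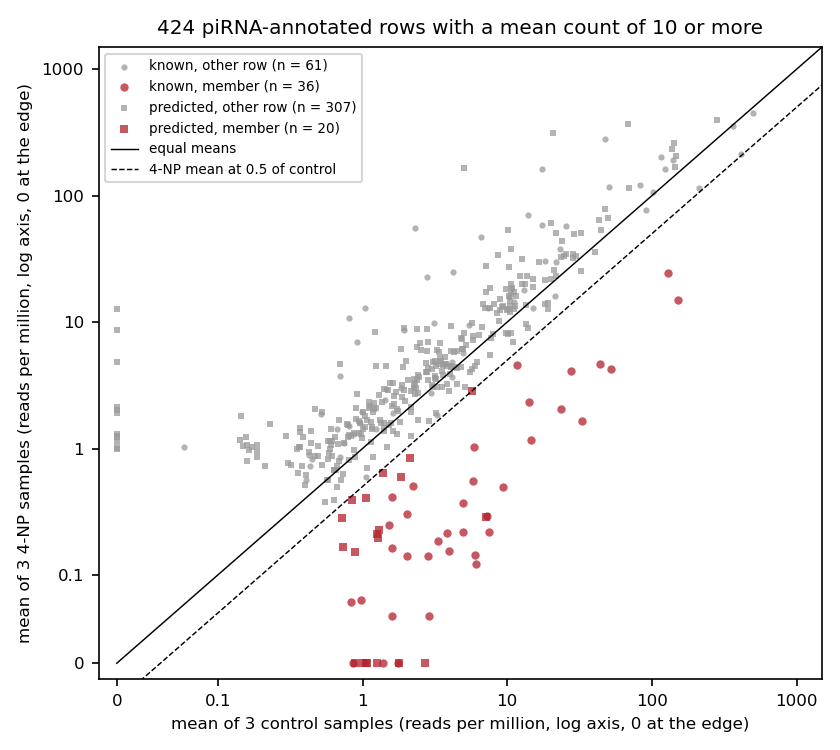
Mean level of the 424 piRNA-annotated rows with a mean count of 10 or more in the 3 control samples (horizontal) and the 3 4-NP samples (vertical), in CPM on log axes with 0 at the edge. The 56 members, in red, lie under the dashed line that marks a 4-NP mean of 0.5 of the control mean, and most of the 61 other known and 307 other predicted rows lie near or above the line of equal means.

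Over the 56 members, the median 4-NP level was 7.78% of control, whereas over the 424 rows that could be chosen the median was 140%. This contrast is set by the rule and is given for scale. Of the members, 33 were at 10% of control or less, 12 were over 10 to 20%, and 11 were over 20 to 50%. The 33 include 7 predicted piRNAs listed at 0 in all treated samples, and 38 of the 60 treated values of predicted members were listed at 0, so the percentages of predicted members may be too low. The known members had a median of 7.10% of control (median control level 4.95 CPM) and the predicted members one of 17.0% (1.26 CPM), with a range of 0 to 39.3% and of 0 to 49.4%.

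No known row lay between rno_piR_024622 at 39.3% of control and rno_piR_023447 at 51.6%, and 25 of the 36 known members were at 10% or less. Of the 97 known rows, 40 lay over 50% and under 200% of control and 21 at 200% or more. Among the predicted rows, 228 of 327 lay over 50% and under 200%, 79 lay higher, and 12 of the 20 members were above 10%. The members just inside the threshold were all predicted, namely novel_pir217 at 49.4%, novel_pir172 at 46.9% and novel_pir532 at 46.5%. novel_pir217 had 5.75 ± 0.668 CPM without and 2.84 ± 0.591 CPM with 4-NP (SD, n = 3 per group) and did not overlap, while novel_pir172, with 28, 14 and 16 against 10, 0 and 16, overlapped. The rows just outside it were rno_piR_023447, rno_piR_018183 at 54.4% and rno_piR_026502 at 55.6%, and in each of them the groups overlapped. For rno_piR_023447 the 19124 reads of control sample 1 stood against 4626 and 5074 in the other controls, and its ratio was 1.00 without control replicate 1.

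**Figure D3:**
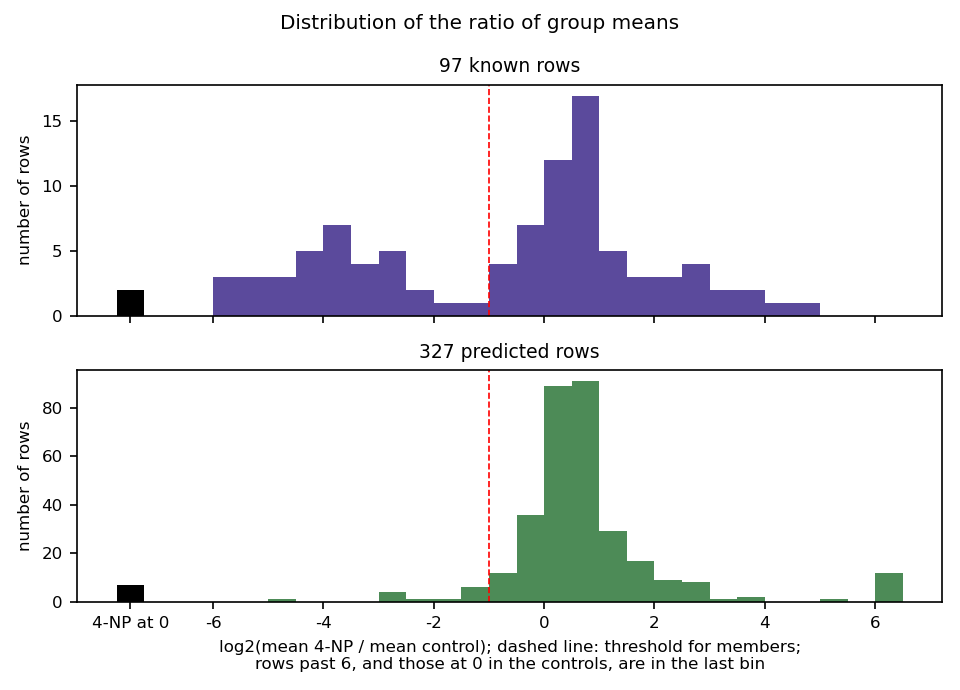
Number of known rows (top) and predicted rows (bottom) by the log2 ratio of the 4-NP mean to the control mean, with rows at 0 in all 4-NP samples in the black bar and the threshold for members at the dashed line. Of the known rows, 25 of 97 are at or under 10% of control, as are 8 of the 327 predicted rows. The median is 114.3% of control for the known rows and 142.5% for the predicted rows.

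The 3 samples of each group did not overlap in 49 of the 56 members, all with the treated samples lower. The background over all 707 small RNAs other than mature miRNAs with a mean count of 10 or more was 11.3% lower without overlap. In edgeR's quasi-likelihood test across 738 small RNAs other than mature miRNAs, 53 of the 56 members passed the filter on low counts and 38 of these had a Benjamini-Hochberg adjusted p under 0.05 with a lower level, against 7.86% of all 738. As the rule used this contrast, nothing is read from these counts. Of the 38, 30 were known and 8 predicted. The 58 small RNAs called lower were 42 piRNA-annotated rows, 13 miRNA precursors, 1 snoRNA and 2 other Rfam families. Over all tested rows, 58 were lower and 110 higher, and with TMM factors taken from these small RNAs themselves 76 were lower and 65 higher.

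The choice was repeated with 1 sample left out each time, and the omitted sample was then set against the mean of the other group. That mean had itself taken part in the choice, both for the rows chosen and for those not chosen. Only 1 side of each comparison is therefore new, and the counts are a description. Low shares among the rows not chosen follow in part from the rule. Without control replicates 1, 2 and 3, the rule chose 52, 46 and 50 rows, and in 45, 42 and 41 of them the 4-NP mean was at most 0.5 of the level in the omitted control. Among the rows not chosen, this held for 1.34%, 1.08% and 0.802%. Without 4-NP replicates 1, 2 and 3, it chose 62, 65 and 65 rows, and the omitted treated sample was at most 0.5 of the control mean in 55, 57 and 55 of them, against 3.13%, 7.36% and 6.18% of the rows not chosen. Of the known rows alone, 30 of 33, 32 of 34 and 32 of 35 met the criterion in the omitted control, and 37 of 39, 38 of 40 and 36 of 39 in the omitted 4-NP sample.

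The known rows below the read minimum give a further value, chosen after the members had been seen. The rule used their mean counts over the 6 samples to leave them out, but not their ratios. These 183 rows together had 218, 303 and 305 control reads against 154, 89 and 167, with no overlap between the groups. Their summed level was 12.0 ± 2.38 CPM without and 6.34 ± 1.68 CPM with 4-NP (SD, n = 3 per group; exact permutation test, two-sided p = 0.1, the smallest p that 3 against 3 samples allow). Of these rows, 129 had a 4-NP mean of at most 0.5 of control, as did 80 of the 199 predicted rows below the read minimum. A known row with a single control read and no treated read is counted here too. The row count therefore says less than the summed level of the known rows, which was 52.7% of control. The share of such rows among all small RNAs below the read minimum was not counted. Reads were present in 84 to 102 of the known rows per control sample and in 30 to 49 per treated sample.

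Among the controls, many members were lowest in the same sample. Of the 37 members with a mean count of 20 or more, 28 had their lowest control level in control sample 1 and 2 had it in control sample 2. Among the 300 other piRNA-annotated rows of that depth, control sample 1 was lowest in 39.3%. The summed level of the 56 members was 521, 680 and 696 CPM in control samples 1, 2 and 3. In the treated samples, 16, 10 and 11 of the 37 had their highest level in 4-NP samples 1, 2 and 3.

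The neighbouring names rno_piR_000116 and rno_piR_000117, chosen after their values were seen, had 7.20 to 8.85 reads of the former per read of the latter in the controls and 9 to 11.3 with 4-NP, while rno_piR_000117 itself went from 70, 111 and 91 reads to 5, 2 and 3.

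piRNA-annotated reads as a whole were not lower with 4-NP. The class had 5845 ± 457 CPM without and 7971 ± 1384 CPM with 4-NP (SD, n = 3 per group; exact permutation test, two-sided p = 0.1, the smallest p this design allows), with every treated sample above every control. Without the 56 members it had 5212 ± 514 and 7894 ± 1386 CPM. The rise was not particular to this class. With scaling to the mature miRNAs, the median log2 fold change was 0.47 over the 460 tested piRNA-annotated rows and 0.46 over all 738 tested small RNAs. Under TMM scaling on the non-miRNA rows, the median over all tested rows was 0.06. The summed level of the members was 632 ± 96.8 CPM without and 77.8 ± 6.02 CPM with 4-NP (SD, n = 3 per group), or 12.3% of control. They therefore took 8.57 to 13.1% of the piRNA-annotated reads of a control sample and 0.779 to 1.19% of those of a treated sample.

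The 5 most abundant piRNA-annotated rows held no member. rno_piR_012738 had 12192, 8587 and 13683 control reads against 16117, 103 and 13626, and rno_piR_016874 had 12024, 8392 and 4717 against 12189, 9867 and 729. In each of them 1 treated sample stood far below the others. novel_pir446 had 280 ± 20.3 CPM without and 399 ± 32.8 CPM with 4-NP, and novel_pir381 had 68.4 ± 12.8 and 372 ± 57.8 CPM (SD, n = 3 per group). The latter was called higher in edgeR (log2 difference 2.43, standard error 0.24), as were 14.9% of the 738 small RNAs. In the other direction from the members, 100 piRNA-annotated rows had a 4-NP mean of at least 2 times the control mean, of which novel_pir265, novel_pir79 and novel_pir400 were listed at 0 in every control. novel_pir265 had 361, 149 and 313 treated reads, novel_pir79 had 157, 183 and 217, and novel_pir400 had 107, 67 and 137.

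Marker miRNAs of other cell types are given beside the members, since piRNAs are known from germ cells. A list of 22 miRNA arms of the X-linked testis cluster, a group of rapidly evolving miRNAs known from the testis and its germ cells, had 17 tested arms, of which 13 fell and none rose at an adjusted p under 0.05 in edgeR, against 12.8% lower of all 549 tested miRNAs. Its summed level was 711 to 796 CPM without 4-NP and 154 to 257 CPM after 4-NP. The 18 arms with a mean count of 10 or more had a median of 11.5% of control. The known piRNA members had 7.10%, but they were chosen by their ratio. The arms were taken as a whole list, which was itself chosen with earlier results of these data known. All 97 known piRNA rows with that many reads had a median of 114% of control. The mature sequences of the 4 most abundant arms that fell, from RefSeq on the GRCr8 assembly, are shown 5′ to 3′ because these miRNAs moved with the members, with the seed (bases 2 to 8) in capitals. The 4 seeds differ from each other.
miR-741-3p: aAAGAUGCcacgcuauguagau
miR-871-5p: uAUUCAGAuuggugccggucacau
miR-463-5p: uACCUAAUuuguuguccauca
miR-871-3p: uGACUGGCaccauacuggauaa

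miR-741-3p had 8260, 10922 and 10598 control reads against 989, 1266 and 1369, or 13.1% of control in CPM (edgeR log2 difference -2.94 with standard error 0.23 and adjusted p = 0.000343). miR-871-5p had 7.99% of its control level and miR-463-5p 11.9%. The arms of miR-201, of the same list, did not follow the others, with 3459, 1333 and 2357 control reads of miR-201-5p against 3069, 1369 and 3697.

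The lists of other germ line miRNAs moved in different directions. Of the miR-290 to miR-295 cluster, known from primordial germ cells and stem cells, 9 arms were in the table, and miR-292-3p, the only one with a mean count of 10 or more, had 22, 15 and 15 control reads against 4, 1 and 5 (edgeR log2 difference -2.26 with standard error 0.55 and adjusted p = 0.0297). The sum of the list was 1.65 to 2.95 CPM without 4-NP and 0.449 to 0.594 CPM after 4-NP. miR-34b and miR-34c, known from meiotic germ cells and as targets of p53, were higher, with all 4 arms called against 7.47% higher of all tested miRNAs and at 200.4 to 260% of control, and miR-449a-5p was at 85.5% of control. The gonadal somatic list of miR-202 and miR-140, whose 4 arms were all present, had 1382 to 1897 CPM without 4-NP and 1213 to 1404 CPM after 4-NP. No arm was called in either direction. Its most abundant arm, miR-202-5p, was at 72.8% of control (edgeR adjusted p = 0.0858), with every treated sample below every control. The miR-140 arms were at 84.9% and 87.6%, and miR-202-3p, with the fewest reads, was at 171%.

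**Figure D4:**
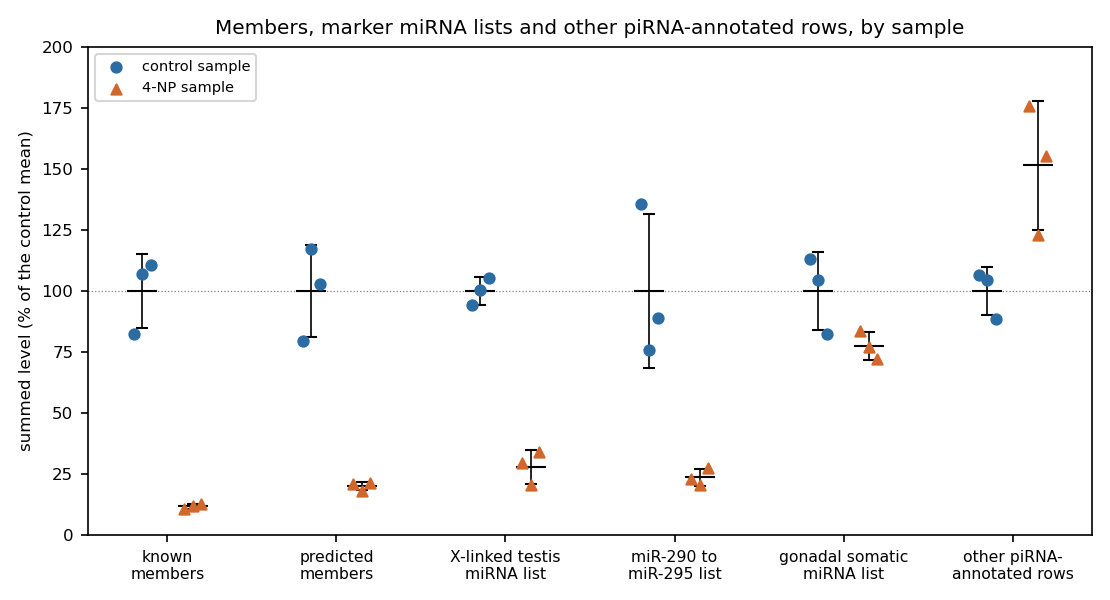
Summed level in each sample as a percentage of the mean of the 3 control samples, for the known and predicted members, 3 lists of marker miRNAs and the other piRNA-annotated rows. Circles are control and triangles 4-NP samples, and bars give the mean and SD of 3 samples. The known members (11.8% of control), the predicted members (20.1%), the X-linked testis list (27.9%) and the miR-290 to miR-295 list (23.6%) are low after 4-NP. The gonadal somatic list is at 77.6% and the other piRNA-annotated rows are at 151%. Lists not drawn are the meiotic germ cell (115%), endothelial (49.8%), smooth muscle and myoid (72.3%), myeloid (110%) and erythroid (1582%) ones.

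Markers of further cell types and other RNA classes moved as well. The endothelial miR-126a arms fell to 49.9% and 45.6% of control and 2 of 7 tested arms of the smooth muscle and myoid list fell, while of the erythroid list miR-451-5p rose and the sum went from 11.0 to 40.7 CPM in the controls to 59.3 to 631 CPM after 4-NP. No arm of the myeloid list was called. tRNA reads went from 369 ± 95.3 to 1519 ± 671 CPM and ribosomal RNA reads from 2825 ± 377 to 6567 ± 1060 CPM, and the total that the authors assigned to repeats from 7218 ± 696 to 12021 ± 1271 CPM (SD, n = 3 per group), opposite to the members in each case. The part of these differences in the low level of the 56 piRNAs was not tested. In these bulk libraries, fewer cells of a type and less RNA per cell cannot be told apart.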

How the data were processed

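Small RNA-Seq of 3 control samples and 3 samples treated with 4-NP was analysed, grouped by the sample labels, with each treated column assigned to the sample of its number. The authors ligated adapters with molecular identifiers, sequenced the RNA and deposited 1 table of read counts per small RNA, without normalization. HISAT2 and DESeq2 are named in the submitters' processing notes without a role. The genome build, the piRNA database and the prediction method are not given in the sources used here. Each sample's second deposited column, whose name refers to molecular identifiers, was 1 in all known members with reads and at most 4 in predicted ones, did not hold numbers of molecules and was not used. The 4 rows that total reads on exons, introns, repeats and intergenic sequence, 3.52 to 5.91% of counted reads, entered neither library sizes nor tests.

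Counts were divided by the sum of mature miRNA counts (22291892 to 23426742 in the controls, 20023200 to 22130929 after 4-NP) and multiplied by 1000000. Small RNAs other than mature miRNAs were tested together in R 4.3.3 with edgeR 4.0.16 (quasi-likelihood F test, filterByExpr, TMM effective library sizes of the mature miRNAs, no block, Benjamini-Hochberg adjustment), and the mature miRNAs in a fit of their own. Alternatives were other scalings, DESeq2 1.42.0, limma 3.58.1, other filters, a replicate block and the omission of each sample. Standard errors beside edgeR log2 differences were derived as the absolute log2 difference divided by the square root of the F statistic. The procedure was tested on simulated data. Named were the 10 most abundant members, the 5 with the lowest ratio (ties by control level), the 3 rows just inside and outside the threshold, the 5 most abundant piRNA-annotated rows and the 3 largest rises, with other members as examples chosen after their values were seen. All 6 samples were kept. Counts of each pair of replicates differed by more than counting error over piRNA-annotated rows (chi-square per degree of freedom 28.3 to 87.1). That does not tell whether the samples came from separate cultures. Members and lists were chosen with earlier results of these data known.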

Additional observations from a re-analysis of the deposited data

How the results depend on the processing

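The summed level of the members after 4-NP was 0.113 to 0.129 of control when each sample was left out and 0.124 when scaled to all counted reads, and the ratio of the whole piRNA-annotated class was 1.26 to 1.49. The rule chose 46 to 65 rows without 1 sample. It chose 37 rows with a minimum mean count of 20. With all 56 members retained, it chose 69 under TMM scaling on the non-miRNA rows and 71 when scaled to piRNA-annotated reads. With a listed 0 in predicted rows taken as 9 reads, added after the data were seen, 52 remained. The ratio of rno_piR_024622 was 0.225 to 2.06 when each sample was left out, with 2.06 without control replicate 3, which held 678 of its reads.

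Of the members, 30 to 38 were called lower when each sample was left out and 37 to 42 with other scalings, DESeq2, limma, no filter on low counts or 1 table with the mature miRNAs. The replicate block gave 24, and a filter of at least 10 counts in every sample gave 12, since only 13 members passed it. Of all tested small RNAs, 30 were then lower and 37 higher with the replicate block and 22 lower with that filter, and 51 to 173 were higher when each sample was left out. The median log2 fold change of all tested rows was 0.46 on the main scaling and 0.06 under TMM scaling on the non-miRNA rows, which gave 76 lower and 65 higher in place of 58 and 110, and the median of the tested members was -3.63 and -4.02. Same-numbered samples had correlations of their deviations of -0.04, -0.05 and 0.15, so the numbers were not taken to pair the samples. Marker miRNAs called higher numbered 5, and 3 to 6 when each sample was left out.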
